A study of Mus musculus with 20 samples.

Results

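Switching Wnt signalling on in differentiating mouse embryonic stem cells was followed here across 32 pooled populations of a germ layer experiment, in which every combination of 5 signals was given for 24 h in differentiation medium. The cells were a male 129P2/OlaHsd embryonic stem cell line. In the 16 Wnt plus populations the cells received an inhibitor of GSK3 (GSK3 inhibitor XV), and in the 16 Wnt minus populations they received IWR1, a tankyrase inhibitor that stabilises Axin. Each Wnt level was combined with every setting of the other 4 signals: RA (retinoic acid or its receptor antagonist CD 2665), Tgfb (Activin A or A8301), Bmp (Bmp4 or Dorsomorphin) and Fgf (Fgf2 or the MEK inhibitor UO126). The populations are those that the authors assigned and passed: 4350 of the 8421 germ layer cells, 70 to 230 cells and 991630 to 3816595 UMIs (counted molecules) each, out of 560 single-cell populations and 12118 assigned cells in the whole series. Before treatment the cells were grown without the GSK3 inhibitor XV and UO126 of their stem cell medium. Cells of all wells shared a library and were told apart by barcodelets, short synthetic RNAs transfected into each well. Both Wnt levels were thus drug treatments, with no vehicle population, and each combination had 1 population.

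Wnt ligands bind Frizzled receptors and their Lrp co-receptors, which halts the destruction complex of Axin, Apc, Csnk1a1 and Gsk3 that marks beta-catenin for breakdown. Stabilised beta-catenin enters the nucleus and acts with the factors Tcf7, Lef1, Tcf7l1 and Tcf7l2 on targets that include feedback inhibitors of the pathway itself. In the mouse embryo this signal sets up the primitive streak and the posterior body axis, while the anterior epiblast that gives rise to the brain is kept free of it.

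In Wnt plus populations 14 of 18 tested caudal epiblast genes rose, as did 9 of 9 tested Hox genes with paralog numbers 6 to 9, 7 of 13 tested Wnt feedback genes and 6 of 13 tested primitive streak genes, while 1 feedback and 1 streak gene fell. In the same populations 10 of 12 tested primed epiblast genes and 9 of 15 tested neural ectoderm genes fell. List members were picked with earlier results of these data known, so these counts are no independent support. Some genes are in several lists, and the streak genes that rose include Lmo2 and Tlx2. The 9 Hox genes are those of 12 listed that passed the filter on low counts. A gene near 0 in Wnt minus populations passes it only through its Wnt plus level, so such counts describe the genes tested. Of 10614 genes tested, 1280 rose and 1262 fell in Wnt plus populations (12.1% and 11.9%; 23.9% called in all; edgeR quasi-likelihood test, Benjamini-Hochberg adjusted p under 0.05). Changes of over 2-fold were called in 98 genes that rose and 76 that fell. In all 16 pairs of populations that differed in Wnt alone, 218 genes were higher and 114 lower, and each of these was called. Levels of the 16 Wnt plus and 16 Wnt minus populations did not overlap for 24 genes (0.226%), of which 21 were higher and 3 lower in Wnt plus populations. The levels given here are CPM (a gene's UMIs scaled to a fixed total per population by edgeR's TMM library sizes), and a change is the fitted log2 ratio of Wnt plus over Wnt minus with its standard error, averaged over the other 4 signals. A sum over cells cannot tell fewer cells of a kind from less RNA in each.

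Wnt plus populations held a median of 135.5 cells, and Wnt minus populations 128.5 (exact paired permutation test over 16 pairs, adjusted p = 0.898). Median UMIs per cell averaged 15512 ± 1228 in Wnt plus and 15603 ± 1542 in Wnt minus populations (SD, n = 16 each; exact paired permutation test, adjusted p = 0.898). Other measures moved with Wnt. Ribosomal protein genes took 26.5% ± 0.97 of the UMIs in Wnt plus and 24.1% ± 0.96 in Wnt minus populations (SD, n = 16 each), higher in 16 of 16 pairs (exact paired permutation test, adjusted p = 0.00018). The median barcodelet count per cell was 1325 in Wnt plus and 1093 in Wnt minus populations, higher in 15 of 16 pairs (exact paired permutation test, adjusted p = 0.0076). The median number of genes per cell was 3930 in Wnt plus and 4102 in Wnt minus populations, lower in 12 of 16 pairs (exact paired permutation test, adjusted p = 0.0323). Their part in the gene results was not tested. With libraries scaled by their totals alone, 845 genes were higher and 2042 lower in Wnt plus populations, and the median of all genes stood at -0.06.

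Markers of the stem cell label were present at both levels. The 7 embryonic stem cell markers summed to between 319 and 1361 CPM in Wnt plus and between 419 and 1947 CPM in Wnt minus populations, and all 7 passed the filter. Of these 4 fell in Wnt plus populations (Sox2, Nanog, Tdgf1 and Utf1) and 0 rose. Pou5f1, the central pluripotency factor, had a median of 199 CPM in Wnt plus and 194 CPM in Wnt minus populations, at -0.14 ± 0.07 (edgeR adjusted p = 0.138). The 9 fibroblast markers, of which feeder cells would bring many, summed to between 10.0 and 39.98 CPM in Wnt plus and between 7.6 and 70.3 CPM in Wnt minus populations. Extraembryonic endoderm is a lineage that can arise beside the epiblast in such cultures. Its 12 markers summed to medians of 117 CPM in Wnt plus and 182 CPM in Wnt minus populations. Only 1 of the 8 tested fell (Dab2, an endocytic adaptor, -0.88 ± 0.20). Beside these marker counts, 12.1% of all genes tested rose and 11.9% fell. These lists and the members of every list below were picked for this tissue and pathway with earlier results of the same data known.

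Of 21 Wnt feedback and antagonist genes, 13 passed the filter on low counts, 7 rose and 1 fell, with a median of 0.40 against 0.00 for all genes. Axin2, the scaffold of the destruction complex that the pathway itself induces (ENSMUSG00000000142, chr11:108920349-108950783, + strand, GRCm38), had a lowest, median and highest level of 45.3, 68.2 and 117 CPM in Wnt plus populations, against 12.7, 25.1 and 44.2 CPM in Wnt minus populations. The lowest Wnt plus population thus stood above the highest Wnt minus one, and the change was 1.51 ± 0.09 (edgeR adjusted p = 3.15e-14). Nkd1, which binds Dishevelled and damps the signal (chr8:88521354-88594884), had 29.5, 49.3 and 120 CPM in Wnt plus populations, against 6.37, 12.0 and 20.7 CPM in Wnt minus populations. It too showed no overlap (1.99 ± 0.15, higher in 16 of 16 pairs). Notum, a secreted enzyme that strips the lipid from Wnt ligands, had 4.59, 21.8 and 71.2 CPM in Wnt plus populations and 1.59, 4.09 and 13.8 CPM in Wnt minus populations, with overlapping ranges (2.01 ± 0.23, higher in 15 of 16 pairs). The ubiquitin ligase Znrf3, which removes Frizzled from the cell surface, rose by 0.69 ± 0.11, and Wls, the carrier that brings Wnt ligands to the surface, by 0.43 ± 0.07. Rnf43, the partner of Znrf3, rose by 0.74 ± 0.27 at a median of 2.95 CPM in Wnt plus and 1.62 CPM in Wnt minus populations, a call that ended under DESeq2 (adjusted p = 0.0795) and 6 other settings. The secreted antagonist Sfrp1 went the other way: 4.67, 8.64 and 24.3 CPM in Wnt plus populations, against 7.63, 16.6 and 161 CPM in Wnt minus populations (-1.52 ± 0.22, edgeR adjusted p = 2.87e-06). Its relative Sfrp2 rose by 0.40 ± 0.13. Dkk1, an antagonist that binds Lrp co-receptors, stood at 0.22 ± 0.18 (edgeR adjusted p = 0.407), with medians of 58.6 CPM in Wnt plus and 41.4 CPM in Wnt minus populations.

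**Figure D1:**
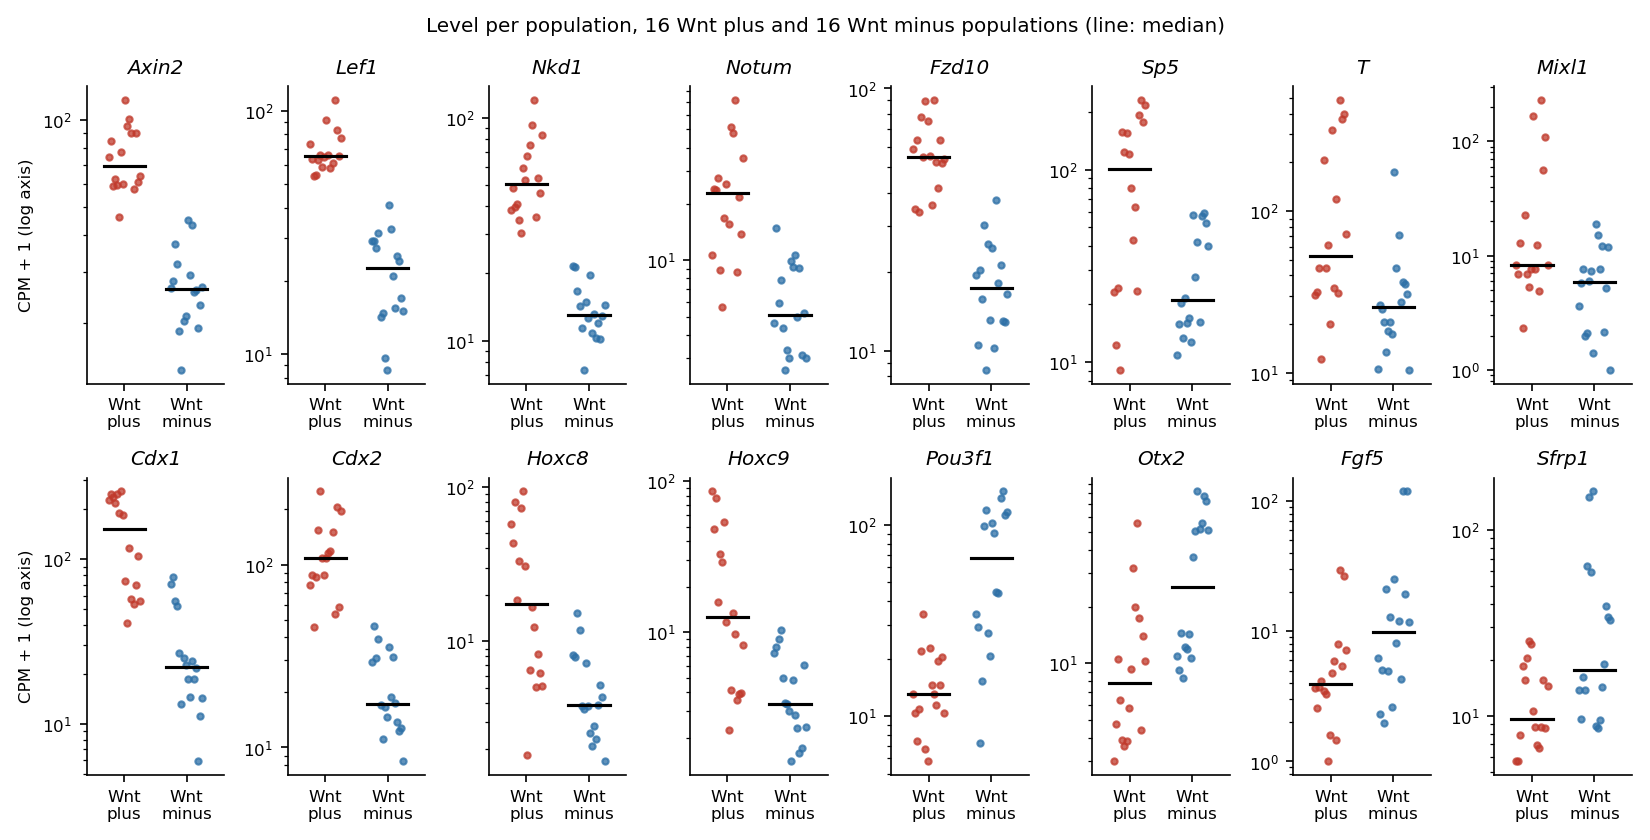
Level of 16 genes in each population, as CPM + 1 on a log axis, with the 16 Wnt plus populations (GSK3 inhibitor XV) left and the 16 Wnt minus populations (IWR1) right in each panel; each point is 1 population and the line is the median. Axin2, Lef1 and Nkd1 do not overlap between the levels, whereas T and Mixl1 overlap widely, with their 4 highest levels in Wnt plus populations, and Pou3f1, Otx2, Fgf5 and Sfrp1 reach their highest levels in Wnt minus populations.

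Among 17 nuclear factors of the pathway, 14 passed the filter, 4 rose and 3 fell (12.1% and 11.9% of all genes tested). Lef1 (chr3:131110471-131224356, + strand) had 52.9, 64.1 and 110 CPM in Wnt plus populations, against 7.63, 21.6 and 39.9 CPM in Wnt minus populations, and Tcf7 had 57.3, 68.3 and 84.5 CPM, against 20.7, 36.4 and 51.4 CPM. Neither overlapped between the levels (1.70 ± 0.13 for Lef1 and 0.90 ± 0.08 for Tcf7). The other members of the Tcf family moved down. Tcf7l1, which represses Wnt targets in embryonic stem cells, had 15.0, 25.1 and 41.0 CPM in Wnt plus populations, against 27.2, 48.1 and 67.9 CPM in Wnt minus populations (-0.86 ± 0.11, lower in 16 of 16 pairs), and Tcf7l2 fell by 0.60 on the log2 scale. Sp5, a zinc finger factor that acts on Wnt targets (chr2:70474923-70477729, + strand), had 8.07, 99.6 and 230 CPM in Wnt plus populations, against 9.86, 19.9 and 58.3 CPM in Wnt minus populations (1.68 ± 0.23, higher in 14 of 16 pairs). Some Wnt plus populations therefore lay at the Wnt minus level of Sp5. Of the destruction complex and its regulators, 15 of 16 genes passed the filter. Apc rose by 0.19 ± 0.07 and the kinase gene Csnk1a1 fell by 0.09 on the log2 scale, calls that ended in 8 settings for Apc, such as DESeq2 (adjusted p = 0.0564), and in 5 settings for Csnk1a1, such as no filter on low counts (edgeR adjusted p = 0.085), while Ctnnb1, which encodes beta-catenin, stood at -0.02 ± 0.04 and Gsk3b at -0.01 ± 0.04.

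The promoters of Sp5, T and Lef1 are shown because these genes rose and hold the core that Tcf and Lef factors bind, CTTTGA or its reverse complement TCAAAG, in capitals. Each window runs from 250 bases before a RefSeq transcription start to 50 after it, 5′ to 3′ on the gene's strand, in GRCm38.p6. They lie at chr2:70474673-70474972 for Sp5, chr17:8434173-8434472 for T and chr3:131156044-131156343 for Lef1, all on the + strand; the Lef1 window is the most downstream of 4 starts, and the others hold no match.
Sp5: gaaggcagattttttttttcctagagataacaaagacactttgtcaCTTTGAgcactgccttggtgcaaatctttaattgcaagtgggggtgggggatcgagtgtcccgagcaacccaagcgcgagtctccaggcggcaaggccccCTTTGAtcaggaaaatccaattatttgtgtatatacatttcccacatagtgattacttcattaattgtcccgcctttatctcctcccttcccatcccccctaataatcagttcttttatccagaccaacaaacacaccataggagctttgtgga
T: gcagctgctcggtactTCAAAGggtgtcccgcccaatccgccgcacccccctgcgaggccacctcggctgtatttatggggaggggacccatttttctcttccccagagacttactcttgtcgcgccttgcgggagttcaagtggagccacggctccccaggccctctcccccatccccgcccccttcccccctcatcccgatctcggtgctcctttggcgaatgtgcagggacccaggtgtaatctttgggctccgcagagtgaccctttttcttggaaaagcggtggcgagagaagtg
Lef1: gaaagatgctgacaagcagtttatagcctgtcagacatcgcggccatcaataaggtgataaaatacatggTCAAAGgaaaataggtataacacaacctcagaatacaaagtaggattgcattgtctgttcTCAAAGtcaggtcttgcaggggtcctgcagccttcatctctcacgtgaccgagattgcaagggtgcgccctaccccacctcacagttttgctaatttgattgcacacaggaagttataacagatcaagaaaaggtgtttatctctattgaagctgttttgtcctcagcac
The first match begins at position -204 from the start in Sp5, -234 in T and -180 in Lef1. The same 6 letters, on either strand, were in 16.0% of all 32851 such windows and in at least 1 window of 13.3% of the 8101 tested genes that had one. They were in 14.9% of the 946 matched genes that rose and 11.3% of the 963 that fell, and in 17.9% of the 67 that rose over 2-fold and 11.3% of the 53 that fell over 2-fold. Of the 15 genes that rose most, 9 had a window and 0 of these held the letters. In the feedback, nuclear factor, ligand, receptor, streak, caudal and Hox lists, 47 members rose and 31 of them had a window. Only 4 of these 31 held the letters: Lef1, Sp5, T and Wnt5b. Axin2, Nkd1 and Cdx2 have no match in their windows. A match is a description of the letters and not a bound site.

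Ligands and receptors of the pathway changed in both directions. Of 24 genes for ligands, their processing and R-spondins, 14 passed the filter, 6 rose and 3 fell (12.1% and 11.9% of all genes tested). Wnt6 had 82.3, 211 and 373 CPM in Wnt plus populations, against 16.0, 72.5 and 237 CPM in Wnt minus populations, higher in 16 of 16 pairs (1.37 ± 0.21). Wnt5a and Wnt5b, ligands of posterior elongating tissue, rose by 1.84 ± 0.20 and 1.77 ± 0.22, Wnt10a by 1.42 ± 0.32, and Rspo3, a secreted amplifier of the signal, by 1.07 ± 0.22. Wnt3a, the ligand of the caudal embryo, was scarce, with medians of 2.20 CPM in Wnt plus and 0.46 CPM in Wnt minus populations, and rose by 2.55 ± 0.41. Wnt7b, Wnt4 and Rspo1 fell, by 0.93, 0.53 and 0.53 on the log2 scale. Wnt3 and Wnt8a, which act in the early streak, stood at 0.26 ± 0.16 and 0.34 ± 0.15 (edgeR adjusted p = 0.251 and 0.0948). Among 17 receptors and co-receptors, 14 passed the filter, 3 rose and 4 fell. Fzd10 had 32.7, 54.0 and 89.7 CPM in Wnt plus populations, against 7.44, 16.3 and 36.4 CPM in Wnt minus populations, with a narrow overlap (1.71 ± 0.14). Ptk7 and Ror2, co-receptors of the planar polarity branch, rose by 0.55 ± 0.08 and 0.51 ± 0.09. Fzd2, Fzd4, Fzd7 and the R-spondin receptor Lgr4 fell; Fzd2 was lower in 16 of 16 pairs, with medians of 23.9 CPM in Wnt plus and 40.2 CPM in Wnt minus populations (-0.96 ± 0.09). Lrp5 and Lrp6 stood at 0.13 ± 0.12 and 0.02 ± 0.09.

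Of 18 primitive streak genes, 13 passed the filter, 6 rose and 1 fell. T, the T-box factor that defines the streak and nascent mesoderm (chr17:8434423-8442496, + strand), had 11.2, 52.1 and 490 CPM in Wnt plus populations, against 9.40, 24.4 and 174 CPM in Wnt minus populations (1.67 ± 0.31, edgeR adjusted p = 0.000118). The ranges overlapped widely. The 4 highest levels were all in Wnt plus populations without retinoic acid, at 490, 397, 371 and 318 CPM, and 3 of these had Activin A and 3 had Dorsomorphin in place of Bmp4. Mixl1, a homeobox gene of the streak, had 1.35, 7.29 and 231 CPM in Wnt plus populations and 0, 4.90 and 17.8 CPM in Wnt minus populations (2.19 ± 0.43), and its 4 highest populations were the same 4. Evx1, a gene of the posterior streak, rose by 1.89 ± 0.25, Lhx1 by 2.07 ± 0.34, Tlx2 by 2.03 ± 0.27, and Lmo2, better known as a blood and endothelial cofactor, by 2.35 ± 0.24 (medians 11.4 CPM in Wnt plus and 2.56 CPM in Wnt minus populations). Nodal, the streak-inducing ligand, fell by 0.34 on the log2 scale. Eomes, Fgf8, Snai1 and Foxa2 did not pass the test, at -0.58 ± 0.22, 0.35 ± 0.27, 0.21 ± 0.26 and -0.07 ± 0.23; Eomes passed under 4 other settings, with the same sign. Gsc, Mesp1, Mesp2, Tbx6 and Cer1 were too low to be tested.

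Caudal epiblast genes moved together. All 18 listed were tested, 14 rose and 0 fell, with a median of 1.80; some are also streak, ligand or Hox genes. Cdx2, a homeobox factor of the posterior body and of trophectoderm (chr5:147300805-147307270, - strand), had 44.7, 107 and 251 CPM in Wnt plus populations, against 7.38, 16.3 and 45.4 CPM in Wnt minus populations, so that only the edges of the ranges touched (2.41 ± 0.23). Cdx1 had 40.1, 151 and 258 CPM in Wnt plus and 4.92, 21.2 and 76.5 CPM in Wnt minus populations (2.42 ± 0.16), and Cdx4 rose by 3.32 ± 0.47, with medians of 9.08 CPM in Wnt plus and 0.78 CPM in Wnt minus populations. Nkx1-2, a marker of the caudal progenitors that feed both spinal cord and mesoderm, had 5.47, 27.1 and 130 CPM in Wnt plus populations, against 1.31, 8.57 and 16.2 CPM in Wnt minus populations (2.23 ± 0.28). Grsf1, which encodes an RNA-binding protein, was the most abundant of the list: 101, 356 and 631 CPM in Wnt plus populations, against 52.3, 81.3 and 110 CPM in Wnt minus populations (1.91 ± 0.16, higher in 16 of 16 pairs). Cyp26a1, the enzyme that clears retinoic acid from the tail, rose by 0.70 ± 0.24. Fgf17, Sp8, Fgf8 and Wnt8a did not pass the test.

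Hox genes specify position along the body and are switched on in order from the 3′ to the 5′ end of each cluster. Among those tested, the rise was largest at paralog numbers 6 to 9. Of 39 Hox genes, 21 passed the filter, 15 rose and 1 fell. Of the 15 with paralog numbers 1 to 5, 12 were tested, 6 rose and 1 fell, with a median of 0.52. Of the 12 with numbers 6 to 9, 9 were tested and 9 rose, by 1.51 to 3.61, with a median of 2.45. A gene that is near 0 in Wnt minus populations passes the filter only through its Wnt plus level, so that these counts describe the genes tested and not the clusters. None of the 12 genes with numbers 10 to 13 was tested. Within Hoxa, Hoxa2 stood at -0.50 ± 0.19, Hoxa3 at -0.08 ± 0.22, Hoxa5 at 0.51 ± 0.18 (called), Hoxa7 at 2.45 ± 0.31 and Hoxa9 at 3.61 ± 0.35 (both called). Hoxa9 had 1.04, 4.14 and 36.7 CPM in Wnt plus populations, against 0, 0.82 and 1.97 CPM in Wnt minus populations, and was higher in 16 of 16 pairs. Hoxc8 (chr15:102990607-102994111, + strand) had 0.83, 16.6 and 93.1 CPM in Wnt plus populations, against 0.67, 2.85 and 14.3 CPM in Wnt minus populations (2.84 ± 0.29, higher in 15 of 16 pairs), and Hoxc9 rose by 2.83 ± 0.28. With retinoic acid, the median level of Hoxc8 was 49.6 CPM in Wnt plus and 6.61 CPM in Wnt minus populations; with its antagonist it was 5.42 CPM in Wnt plus and 1.69 CPM in Wnt minus populations (8 populations each). The Wnt effect on Hoxc8 at the 2 levels of RA differed by 1.23 ± 0.80 (edgeR adjusted p = 0.518). Hoxaas3, an antisense RNA that overlaps Hoxa3 to Hoxa7, rose by 2.58 ± 0.42; Hoxc5 (-0.83 ± 0.27) overlaps Hoxc6, Hoxc8, Hoxc9 and Hoxc10. Reads of these overlapping genes may be split, and the Hoxc5 call ended under DESeq2 (adjusted p = 0.231).

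**Figure D2:**
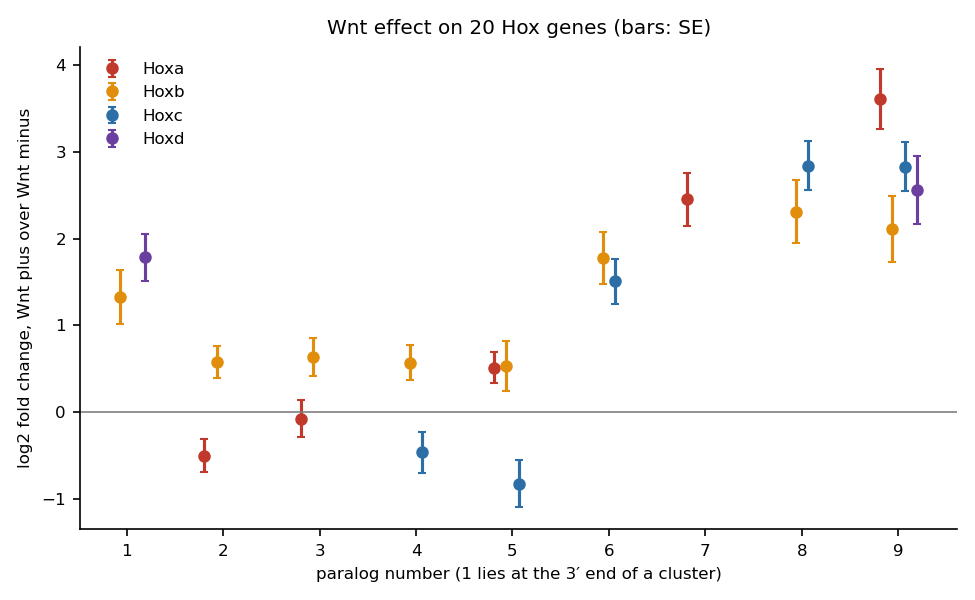
Wnt effect (log2 fold change, Wnt plus over Wnt minus, with SE) on 20 Hox genes, by paralog number and cluster. The 9 tested genes with numbers 6 to 9 lie between 1.51 and 3.61, and the 11 shown with numbers 1 to 5 between -0.83 and 1.78. No gene with numbers 10 to 13 was tested.

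Primed epiblast genes fell. Of 14 listed, 12 passed the filter, 10 fell and 0 rose, with a median of -0.81. Pou3f1, a POU-domain factor found in epiblast and early neural plate (chr4:124656807-124660655, + strand), had 4.78, 12.0 and 33.1 CPM in Wnt plus populations, against 6.26, 66.5 and 150 CPM in Wnt minus populations (-2.17 ± 0.20, lower in 15 of 16 pairs). Otx2, the head and anterior epiblast factor, had 2.00, 6.86 and 54.6 CPM in Wnt plus populations, against 7.37, 24.5 and 81.3 CPM in Wnt minus populations (-1.51 ± 0.22). Fgf5, the classical marker of the primed state, had 0, 2.94 and 28.7 CPM in Wnt plus populations, against 0.98, 8.91 and 119 CPM in Wnt minus populations (-1.60 ± 0.29); Fgf5 was above 28.7 CPM in Wnt minus populations only. Dnmt3b, a DNA methyltransferase, was lower in 16 of 16 pairs (-0.90 ± 0.13), and Utf1 fell by 0.89 on the log2 scale. Of 13 core pluripotency genes 8 fell and 0 rose, among them Sox2 (medians 43.3 CPM in Wnt plus and 88.6 CPM in Wnt minus populations, -0.65 ± 0.14), L1td1 (-0.92 ± 0.13), Tdgf1, a Nodal co-receptor (-1.04 ± 0.22), and Nanog (-0.48 ± 0.17). Naive pluripotency genes were mixed: of 11 tested, Klf5 (0.68 ± 0.13), Tbx3 (0.37 ± 0.11) and Tfcp2l1 (0.41 ± 0.15) rose and Nanog fell.

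Of 15 tested neural ectoderm genes 9 fell and 1 rose, with a median of -0.92. Zic5 and Zic2, zinc finger factors of the neural plate, fell by 0.98 and 1.00 on the log2 scale, Irx3 by 1.07 and the adhesion molecule Ncam1 by 1.02. Sox1 and Pax6, defining factors of neural progenitors, were scarce, with medians of 1.71 and 2.17 CPM in Wnt plus populations and 2.15 and 2.82 CPM in Wnt minus populations; their calls (-1.08 ± 0.31 and -1.39 ± 0.36) ended under DESeq2 (adjusted p = 0.179 and 0.148). Foxb1, a forkhead factor of the posterior neural tube, rose by 1.61 ± 0.30. Of the mesodermal genes outside the streak, Msx1, a homeobox gene that answers to Bmp, had 55.9, 209 and 554 CPM in Wnt plus populations, against 14.0, 70.0 and 271 CPM in Wnt minus populations (1.29 ± 0.15, higher in 16 of 16 pairs). Of the 13 lateral mesoderm genes tested, which include Msx1, 6 rose and 2 fell; Pitx1 (1.95 ± 0.41) and Isl1 (1.73 ± 0.45) rose and Hand1 fell (-0.93 ± 0.19). Of 6 tested paraxial mesoderm genes, 1 rose (Rspo3) and 2 fell (Lfng and Tcf15). Of 13 tested surface ectoderm and trophoblast genes 3 rose (Wnt6, Dlx3 and Grhl3). For scale, 12.1% of all genes tested rose and 11.9% fell.

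Of 15 tested retinoic acid targets and enzymes, 5 rose and 5 fell: Rarb (-1.05 ± 0.15), Meis2 (-1.01 ± 0.18) and Meis1 (-0.79 ± 0.15) fell, while Hoxb1 (1.33 ± 0.31) rose. Of 16 tested FGF and ERK targets, 2 rose, led by Etv4 (0.76 ± 0.15), and 3 fell, including its relative Etv5 (-0.46 ± 0.15). Beside the list counts of this paragraph, 12.1% of all genes tested rose and 11.9% fell. In the Notch pathway Nrarp, a feedback inhibitor, rose by 0.94 ± 0.13, higher in 16 of 16 pairs, while Notch2 and Lfng fell. Cadherin and adhesion genes gave 4 that rose and 3 that fell of 19. Fn1 (0.90 ± 0.14), Cdh2 (0.62 ± 0.19), Esrp2 (0.72) and Ocln (0.40) rose. Snai2 (-0.89), Crb3 (-0.31) and Tjp1 (-0.27) fell. Among cyclins, Myc genes and cell cycle inhibitors, Ccnd2 (0.83 ± 0.09), Ccnd1 (0.35 ± 0.08) and the inhibitor Cdkn1a (0.57 ± 0.06) rose. Mycn (-0.66 ± 0.11), Ccnd3 (-0.36 ± 0.06), Ccne1 (-0.27 ± 0.05) and Ccnb1 (-0.18 ± 0.05) fell, as did another inhibitor, Cdkn1b (-0.73 ± 0.18). Of 19 mitosis genes 10 fell and 0 rose, by small amounts, such as Tpx2 (-0.32 ± 0.05) and Mki67 (-0.29 ± 0.05), and of 18 S phase genes 1 rose (Rrm2). Of 17 cholesterol synthesis genes 8 fell and 0 rose, including the epoxidase gene Sqle (-0.23 ± 0.06, lower in 14 of 16 pairs). Ribosomal protein genes rose in 70 of 79 tested, with a median of 0.20, and 0 fell.

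The shares of cells in which a molecule was seen moved with the sums. They come from the same UMIs and depend on the mean level, so they are not a separate result. After thinning every cell to 5000 UMIs, which left out 77 Wnt plus and 88 Wnt minus cells, at least 1 Axin2 UMI was in a median of 27.2% of the cells of Wnt plus populations and 10.8% of the cells of Wnt minus populations (higher in 16 of 16 pairs; exact paired permutation test over 16 pairs, adjusted p = 4.58e-05). Cdx2 was seen in 34.6% of Wnt plus cells and 6.16% of Wnt minus cells by the same medians, again in 16 of 16 pairs. T was seen in 3.73% to 79.0% of the cells of Wnt plus populations, with a median of 20.7%, and in 2.33% to 38.9% of those of Wnt minus populations, with a median of 7.09%. Pou3f1 was seen in medians of 3.91% of Wnt plus and 20.3% of Wnt minus cells. Without thinning the medians for Axin2 were 55.7% in Wnt plus and 29.4% in Wnt minus populations. Free RNA in droplets can add molecules to cells that do not express a gene; no cell type known to lack these genes was set beside them.

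Among genes with a mean of at least 10 CPM, the one that fell most was no member of the lists, and in Wnt minus cells its level was higher where more barcodelets were counted. Ahdc1, which encodes an AT-hook DNA-binding protein (ENSMUSG00000037692, chr4:133011260-133078110, + strand), had 20.3, 25.4 and 37.3 CPM in Wnt plus populations, against 136, 160 and 192 CPM in Wnt minus populations (-2.57 ± 0.06, edgeR adjusted p = 1.32e-26). The levels lay far apart in every pair, whatever the other 4 signals. When the cells of each population were ranked by their count of the Wnt barcodelet and split into 4 groups of about equal size, Ahdc1 stood at 20.1, 23.4, 25.6 and 32.8 CPM from the lowest to the highest group in Wnt plus cells, and at 36.7, 65.7, 137 and 350 CPM in Wnt minus cells. Population by population, the lowest group had a median of 18.2 CPM in Wnt plus and 37.6 CPM in Wnt minus populations, and the highest group 33.5 CPM in Wnt plus and 350 CPM in Wnt minus populations. The other barcodelets of a cell followed the same order: with cells ranked by the Fgf2 barcodelet, Wnt minus cells had 325 CPM of Ahdc1 in the top group and 34.9 CPM in the bottom one. In the cells with fewer Wnt barcodelets, the lower 2 of these groups, the Wnt effect on Ahdc1 was -1.22 (edgeR adjusted p = 1.16e-10). By contrast, Axin2 stood at 76.4, 70.6, 75.6 and 70.5 CPM over the groups of Wnt plus cells, and at 24.2, 27.2, 27.0 and 24.2 CPM over those of Wnt minus cells. What part of the Ahdc1 difference belongs to the Wnt drugs and what part to the barcodelets was not tested, since each drug had its own barcodelet.

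Of 12 listed interferon response genes, 8 passed the filter, 4 fell in Wnt plus populations (Cxcl10, Isg15, Ifit1 and Bst2) and 0 rose. Among all genes tested, 12.1% rose and 11.9% fell. A gene near 0 in Wnt plus populations passes the filter only through its Wnt minus level. Ifit1 was scarce, with medians of 1.44 CPM in Wnt plus and 2.72 CPM in Wnt minus populations. Cxcl10, a chemokine induced by interferon and by foreign RNA, had 0, 1.93 and 5.97 CPM in Wnt plus populations, against 1.59, 10.8 and 56.1 CPM in Wnt minus populations, lower in 16 of 16 pairs (-2.80 ± 0.41). Over the groups of barcodelet count it stood at 1.93, 1.51, 2.45 and 3.22 CPM in Wnt plus cells and at 2.95, 9.34, 23.8 and 27.0 CPM in Wnt minus cells. Isg15 and Ifit1, further genes of that response, fell by 1.14 and 1.53 on the log2 scale. In the cells with fewer Wnt barcodelets, the lower 2 of these groups, Isg15 stood at -0.11 (edgeR adjusted p = 0.902), whereas Bst2, which encodes a membrane protein that tethers virus particles, stood at -0.49 (edgeR adjusted p = 0.00437), against -0.43 ± 0.11 over all cells. The Ifit1 call ended without 1 of the 32 populations (edgeR adjusted p = 0.106). S100g, a calcium-binding protein gene that rose by 2.40 ± 0.40, had 4.70 CPM in the lowest and 94.5 CPM in the highest group of Wnt plus cells, and 2.95 CPM in the lowest and 17.8 CPM in the highest group of Wnt minus cells. The summed extraembryonic endoderm markers did likewise, with 64.4 and 216 CPM in the lowest and highest groups of Wnt plus cells and 74.4 and 343 CPM in those of Wnt minus cells. Among the 30 genes of largest change, Ahdc1, S100g and Thbs1 differed over 2-fold between the outer groups in Wnt minus cells, and S100g alone did so in Wnt plus cells. The part of barcodelet count in the change of S100g was not tested.

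**Figure D3:**
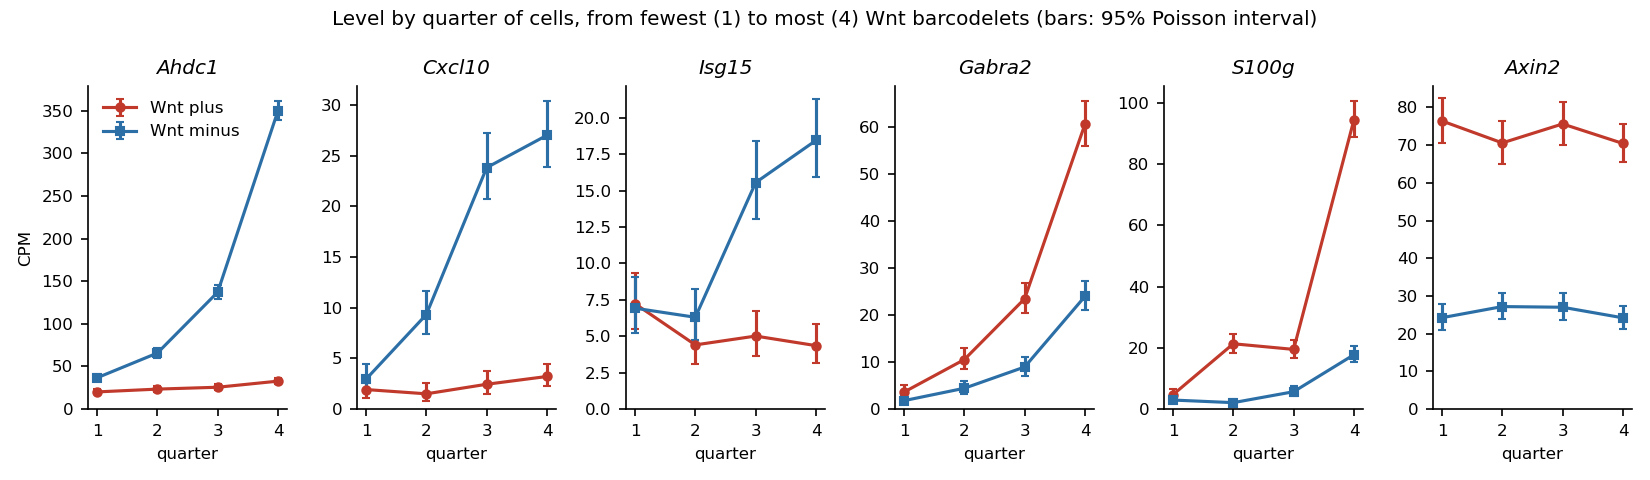
CPM of 6 genes in 4 groups of cells ranked within their population by the count of the Wnt barcodelet (1 fewest, 4 most), for Wnt plus cells (circles) and Wnt minus cells (squares), with 95% Poisson intervals that cover counting error only. Ahdc1, Cxcl10 and Isg15 are highest in the last group of Wnt minus cells, Gabra2 and S100g in the last group at both levels, and Axin2 stays between 70.5 and 76.4 CPM in Wnt plus cells and between 24.2 and 27.2 CPM in Wnt minus cells.

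Whether the Wnt effect depended on another signal was tested by adding the 4 products with Wnt to the fit. The Wnt effect differed with Bmp for 192 of 10937 genes (1.76%; 90 or 0.823% higher and 102 or 0.933% lower with Bmp4) and with RA for 138 (1.26%; 65 or 0.594% higher and 73 or 0.667% lower with retinoic acid). With Tgfb and with Fgf edgeR called 0 genes, with 603 and 547 at an unadjusted p under 0.05, and DESeq2 also called 0. In counts simulated from these populations, 64.5% of 2-fold and 32.2% of 1.5-fold differences of this kind were recovered for Tgfb. Differences of 2-fold and less may thus be missed.

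All 18 caudal genes had a smaller fitted Wnt effect with Bmp4 than with Dorsomorphin, 9 of them called, against 0.933% of all genes called in that direction. T rose with Wnt where Bmp was inhibited, with medians of 139 CPM in Wnt plus and 18.3 CPM in Wnt minus populations, while with Bmp4 the medians were 31.5 CPM in Wnt plus and 25.7 CPM in Wnt minus populations (difference of the 2 Wnt effects -2.53 ± 0.46, edgeR adjusted p = 0.0022). The Wnt effect on Sp5 was 0.50 ± 0.23 with Bmp4 and 2.57 ± 0.18 with Dorsomorphin, where every Wnt plus population had at least 120 CPM. For Cdx2 the Wnt minus level moved too, with medians of 97.3 CPM in Wnt plus and 30.1 CPM in Wnt minus populations with Bmp4, and 131 CPM in Wnt plus and 12.3 CPM in Wnt minus populations with Dorsomorphin. Lef1 was steady in Wnt plus populations, at medians of 61.0 CPM with Bmp4 and 64.5 CPM with Dorsomorphin, and differed in Wnt minus populations, at 28.2 CPM with Bmp4 and 14.0 CPM with Dorsomorphin. Wnt6, Nkx1-2, Evx1, Rspo3, Wnt5b, Cdx1, Grsf1, Ptk7, Hoxb1 and Cox6b2 also had a lower Wnt effect with Bmp4 in that test. For Axin2, Nkd1, Notum and Fzd10 the difference was -0.31 ± 0.18, -0.16 ± 0.25, -0.21 ± 0.40 and -0.37 ± 0.27, and none passed the test (edgeR adjusted p = 0.487 to 0.888). Crabp1, which encodes a retinoic acid-binding protein, changed sign: its Wnt effect was 1.14 ± 0.31 with Bmp4 and -1.96 ± 0.28 with Dorsomorphin. The Wnt effects on Sap30, Rbpms2, Sfrp1, Pim2 and Prss23 were higher with Bmp4. Over all populations Sfrp1, Pim2 and Prss23 fell with Wnt, so a higher effect is not a stronger one there.

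**Figure D4:**
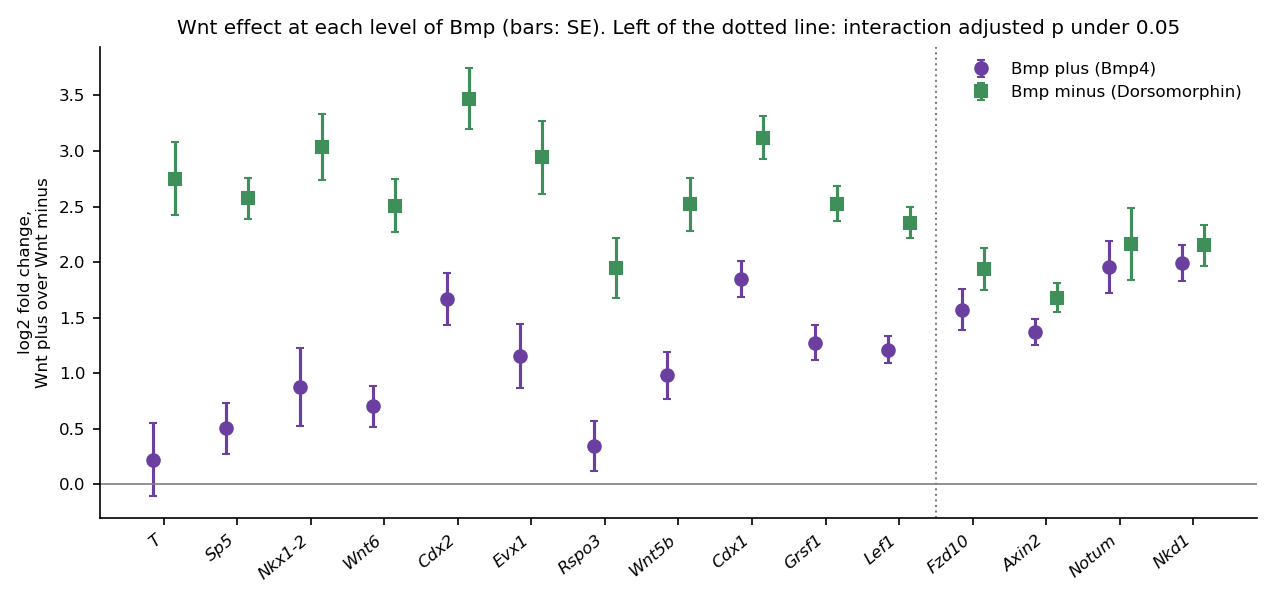
Wnt effect (log2 fold change, Wnt plus over Wnt minus, with SE) on 15 genes in the 16 Bmp plus populations (circles) and the 16 Bmp minus populations (squares). Left of the dotted line the 2 effects differed at an edgeR adjusted p under 0.05, and the genes drawn there are ones whose effect was smaller with Bmp4. The 4 genes to the right did not pass that test. Over all genes tested, 90 were called higher and 102 lower with Bmp4, and those called higher are not drawn.

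Under RA, Hoxb1, a direct retinoic acid target of the hindbrain, had a Wnt effect of 0.43 ± 0.19 with retinoic acid and of 2.99 ± 0.31 with the antagonist (edgeR adjusted p of the difference = 0.000376). Its level with the antagonist was 38.4 ± 35.4 CPM in Wnt plus and 3.55 ± 2.03 CPM in Wnt minus populations (SD, n = 8 each). Prrx2, a homeobox gene of mesenchyme, fell with Wnt under retinoic acid (24.1 ± 16.1 CPM in Wnt plus, 86.1 ± 52.95 CPM in Wnt minus populations; -1.90 ± 0.14) and stood at -0.26 ± 0.20 under the antagonist. Epha4, an ephrin receptor gene, behaved alike (-1.49 ± 0.14 and -0.14 ± 0.16). Arl4a, a small GTPase gene, had a Wnt effect of 1.46 ± 0.16 under retinoic acid and -0.01 ± 0.19 under the antagonist. Pim2, a kinase gene, had one of -0.31 ± 0.25 under retinoic acid and -1.996 ± 0.195 under the antagonist. Abhd14a, Bscl2 and Odc1 had a higher Wnt effect under retinoic acid, and B4galt5 and Ccnb2 a lower one. For Ahdc1 the effect was 0.44 lower on the log2 scale under retinoic acid than under the antagonist (edgeR adjusted p = 0.0404).

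The Wnt effect was then set beside those of the other 2 single-cell experiments, for which the tables give plus and minus but no compound names. In the mixed experiment 62 treated wells with an undirected start and at least 5 cells were used (30 Wnt plus, 32 Wnt minus; 1422 cells), and in the mesendoderm experiment, where all cells first received GSK3 inhibitor XV with CD 2665, Activin A, Dorsomorphin and Fgf2 to direct them to mesendoderm, 300 wells (148 Wnt plus, 152 Wnt minus; 2633 cells). The germ layer library shared 64 cell barcodes with the mixed library (0.76% of its own) and 151 with the mesendoderm library (1.79%). Levels were set across libraries of different depth, and each library is 1 experiment, so library and experiment cannot be told apart. The germ layer effect differed from the undirected-start effect for 805 of 8503 genes (9.47%; 4.72% higher and 4.75% lower) and from the mesendoderm effect for 339 of 3384 (10.0%; 6.53% higher and 3.49% lower). In a simulation of the mesendoderm test 10.3% of the calls were false.

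Fitted alone, the undirected-start wells gave 38.6% of 6295 genes called (19.6% higher and 19.0% lower in Wnt plus wells), and the mesendoderm wells 39.6% of 2328 (19.9% higher and 19.6% lower). The feedback genes Axin2, Nkd1 and Notum rose in all 3 experiments. Nkd1 had a Wnt effect of 1.99 in the germ layer experiment, 2.18 from the undirected start and 2.42 in the mesendoderm experiment, and Notum 2.01, 2.11 and 2.41 (edgeR adjusted p of the differences from 0.132 to 0.9). Axin2 rose more from the undirected start, by 2.36 (difference -0.86, edgeR adjusted p = 0.000107), and by 1.70 in the mesendoderm experiment (edgeR adjusted p of the difference = 0.37). Cdx1 had 2.42, 2.76 and 1.90 (edgeR adjusted p of the differences 0.338 and 0.0509). Cdx2 had 2.41 in the germ layer experiment and 2.57 from the undirected start, and was lower, at 1.05, in the mesendoderm experiment (edgeR adjusted p of that difference = 4.25e-10). Of the 15 genes that rose most, 10 also rose from the undirected start, and of the 15 that fell most 13 also fell. Hoxa7 and Hoxc8 had larger effects in the germ layer experiment (differences of 1.80 and 1.86, edgeR adjusted p = 0.0011 and 0.0106), while Pou3f1 and Otx2 fell further from the undirected start, at -3.82 and -3.03 (edgeR adjusted p of the differences = 0.00296 and 0.00406). Ahdc1 was the gene with the smallest p of a difference in both comparisons: its Wnt effect was -2.57 in the germ layer experiment, -0.76 from the undirected start (19.1 CPM in Wnt plus and 33.5 CPM in Wnt minus wells) and -0.49 in the mesendoderm experiment (22.1 CPM in Wnt plus and 30.2 CPM in Wnt minus wells). Rspo3 rose in the germ layer experiment (1.05 ± 0.17 when both were fitted together) and fell in the mesendoderm experiment (-0.97 ± 0.14). Crabp1 did the reverse, at -0.87 ± 0.18 and 1.82 ± 0.16. Against the undirected start, Jund (-0.16 ± 0.10 and -1.45 ± 0.10), Hoxb2 (0.58 ± 0.18 and -1.87 ± 0.24), Itga6, Ssbp2 and Foxp1 had higher effects in the germ layer experiment, and Asns (0.25 ± 0.08 and 1.20 ± 0.09), Anxa7, Fam213a and Npc2 lower ones. Against the mesendoderm experiment, Rnf128, Gyg, Krt19, Gap43, S100g, Sprr2a3 and Grsf1 had higher effects, and Cmtm7, Cadm1, Rnf121, Car4 and Prrx2 lower ones. Car4 and Prrx2 fell with Wnt in both experiments, and further in the germ layer experiment.

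**Figure D5:**
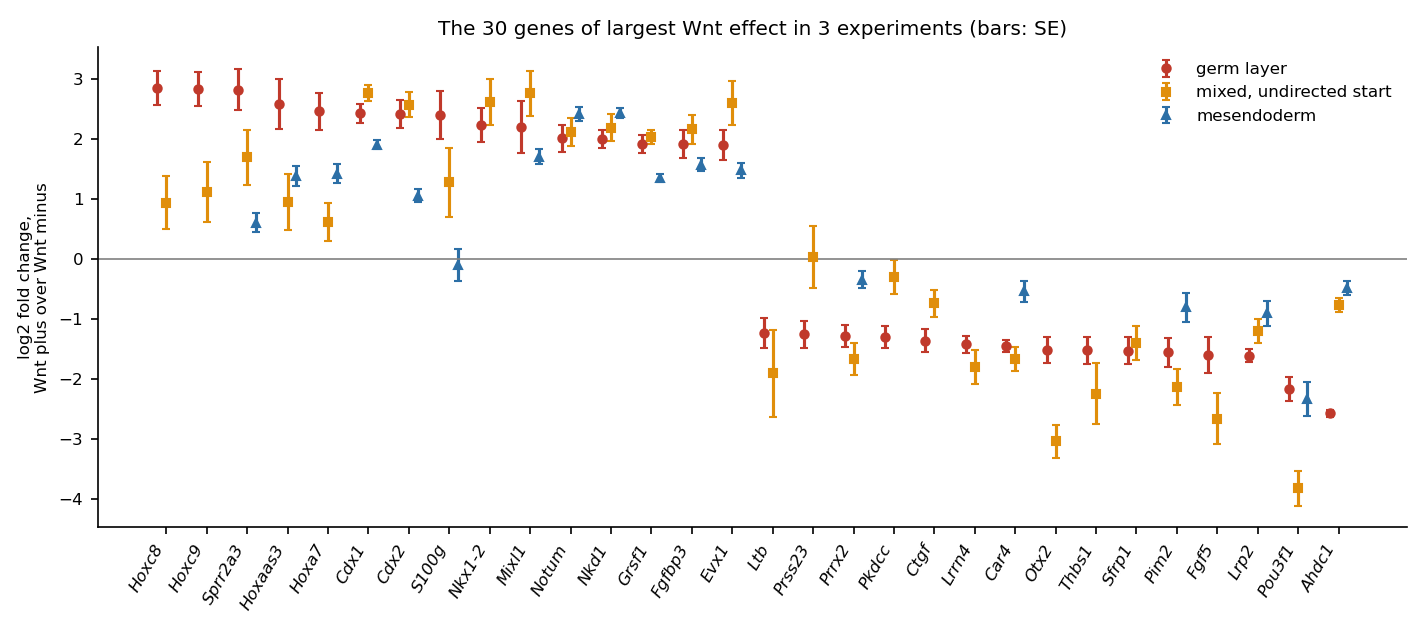
Wnt effect (log2 fold change, Wnt plus over Wnt minus, with SE) on the 15 genes that rose most and the 15 that fell most in the germ layer experiment (circles), beside the same effect in undirected-start wells of the mixed experiment (squares) and in the mesendoderm experiment (triangles, where tested). Ahdc1 stands at -2.57 in the germ layer experiment and at -0.76 and -0.49 in the others, and Nkd1 at 1.99, 2.18 and 2.42.

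The remaining genes of largest change belong to no list described above. Among those that rose, Sprr2a3, a small proline-rich protein gene of a family of near-identical copies, changed by 2.81 ± 0.35 and Fgfbp3, a carrier of secreted FGF, by 1.91 ± 0.23. Among those that fell, Lrp2, an endocytic receptor of the LDL receptor family, had 11.8, 27.8 and 69.4 CPM in Wnt plus populations, against 53.9, 83.9 and 220 CPM in Wnt minus populations, and was lower in 16 of 16 pairs (-1.61 ± 0.11). Car4, a carbonic anhydrase gene, had 28.3, 52.7 and 106 CPM in Wnt plus populations, against 72.7, 146 and 305 CPM in Wnt minus populations, also lower in 16 of 16 pairs (-1.45 ± 0.10). Lrrn4, Ctgf, Thbs1 and Prss23 were lower in 16 of 16 pairs too, by 1.26 to 1.52 on the log2 scale; Ctgf and Thbs1 encode matrix-associated proteins. Pim2, Pkdcc, Prrx2 and Ltb completed the 15.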

How the data were processed

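Single-cell RNA was measured on the 10X platform, and the deposited files hold UMI counts per gene and cell, made by the authors with no normalization. Cell Ranger 1.3.1, HTSeq 0.9.1, STAR 2.5.2b and the build mm10 appear, without roles, among the submitters' processing notes, and the sources used here do not say whether counting used strand. The authors' assignments of cells to wells were taken as deposited; their tables also give the fraction of a cell's barcodelet counts in its leading barcodelets, computed by the authors, which served for 1 alternative. Counts were summed over the passing cells of each population. Wnt plus and Wnt minus populations were compared with edgeR 4.0.16 (filterByExpr, TMM, quasi-likelihood test, Benjamini-Hochberg adjustment over all genes tested) in R 4.3.3, with the other 4 signals as additive terms. With 1 population per combination, the spread came from the residuals of that model. These hold the spread between pooled wells of 1 experiment, together with any dependence between signals that additive terms leave out. The p-values cannot tell these 2 apart. Quality measures and shares of cells were compared over the 16 pairs by a 2-sided exact sign-flip permutation test. DESeq2 1.42.0 and limma 3.58.1 (voom) were alternatives. The fits were tested on simulated data, where 97.0% of 2-fold Wnt effects were recovered. Doublets were not called; leaving out cells above 30628 UMIs was an alternative. Named genes were the 15 largest rises and falls with a mean of at least 10 CPM, members of the pathway, streak, caudal and Hox lists, up to 4 leading members of other lists, and the leading 5 each way of each interaction and difference; further list members were named after their values were seen, and some genes are not reported here. The members and lists were chosen with earlier results of these data known. Coordinates are those of GENCODE vM21 (GRCm38), and promoters are from RefSeq.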

Additional observations from a re-analysis of the deposited data

Results flagged for a closer look

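The following Wnt effects differed between levels of another signal or between experiments by a test of the difference itself (edgeR adjusted p under 0.05). Each value is a difference of 2 log2 Wnt effects.

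With retinoic acid less its antagonist, the Wnt effect differed by 0.75 for Abhd14a, 1.46 for Arl4a, 0.60 for Bscl2, 0.45 for Odc1 and 1.68 for Pim2. It differed by -1.64 for Prrx2, -1.36 for B4galt5, -2.56 for Hoxb1, -1.35 for Epha4, -0.54 for Ccnb2 and -0.44 for Ahdc1.

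With Bmp4 less Dorsomorphin, the Wnt effect differed by 3.09 for Crabp1, 0.63 for Sap30, 0.69 for Rbpms2, 1.52 for Sfrp1, 1.51 for Pim2 and 1.47 for Prss23. It differed by -0.68 for Cox6b2, -2.37 for Hoxb1, -2.07 for Sp5, -0.66 for Ptk7, -1.14 for Lef1, -2.53 for T, -1.27 for Cdx1 and -1.80 for Cdx2. For Nkx1-2 the difference was -2.16, for Evx1 -1.79, for Wnt5b -1.54, for Rspo3 -1.60, for Grsf1 -1.26 and for Wnt6 -1.81.

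In the germ layer experiment less the undirected start, the difference was 1.297 for Jund, 2.46 for Hoxb2, 1.10 for Itga6, 1.68 for Ssbp2, 1.03 for Foxp1, 1.66 for Pou3f1, 1.80 for Hoxa7, 1.52 for Otx2 and 1.86 for Hoxc8. It was -1.81 for Ahdc1, -0.95 for Asns, -0.94 for Anxa7, -0.98 for Fam213a, -0.65 for Npc2 and -0.98 for Pkdcc.

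In the germ layer experiment less the mesendoderm experiment, it was 2.01 for Rspo3, 1.28 for Rnf128, 1.08 for Gyg, 1.62 for Krt19, 1.16 for Gap43, 2.45 for S100g, 1.93 for Sprr2a3, 0.54 for Grsf1 and 1.33 for Cdx2. It was -2.08 for Ahdc1, -2.69 for Crabp1, -1.11 for Cmtm7, -1.12 for Cadm1, -0.89 for Rnf121, -0.82 for Prrx2 and -0.93 for Car4.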

How the results depend on the processing

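No call of the Wnt effect changed direction under any of 13 settings. Of 2204 comparisons over 225 gene results, 2067 kept their side of the threshold, 124 lost a call, 13 gained one and 0 reversed. A gene that did not pass the filter on low counts in a setting was not compared there and is not in these counts. In the cells with fewer Wnt barcodelets this left out Cxcl10, Ifit1 and S100g. Against 1280 higher and 1262 lower genes, equal cells per population gave 824 and 820, equal UMIs 809 and 786, the cells with fewer Wnt barcodelets 700 and 670, and library totals alone 845 and 2042; the last 2 settings were chosen after seeing the data, and the first 3 hold fewer molecules. The RA dependence counted 65 higher and 73 lower genes; DESeq2 gave 107 higher, and a fit with all pairwise products 209 and 205. The Bmp dependence counted 90 and 102, and 229 and 213 with all pairwise products. Without the filter on low counts, 657 genes were higher against the undirected start (401 with it), and 550 higher and 261 lower against the mesendoderm experiment (221 and 118 with it). The cause of these differences was not tested. By replicate number, no paired analysis was possible because the populations carry none. Pairing by design was possible: with the 16 combinations of the other 4 signals as blocks, the fit gave 1327 higher and 1394 lower genes. Leaving out each of the 32 populations in turn, also added after seeing the data, gave 1196 to 1303 higher and 1183 to 1304 lower genes, with 0 calls in the opposite direction. Of 151 called genes followed, 134 kept their call in every such fit and 17 lost it in at least 1, among them Snai2, Tfcp2l1, Rnf43, Apc, Hoxb3, Hoxc5, Nanog, Tcf15, Hoxb4, Cyp26a1, Hoxa5 and Ifit1, with highest edgeR adjusted p from 0.0513 to 0.225 over the 17.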

Other observations

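Other pathways and stress responses showed small or mixed Wnt effects (edgeR calls; 23.9% of all genes tested were called). Of 15 tested Bmp targets 4 rose, among them the homeobox genes Dlx5 (1.00 ± 0.18) and Dlx3 (0.67 ± 0.15), and 2 fell, the differentiation inhibitor Id2 (-0.46 ± 0.13) and Hand1. Of 9 Nodal targets 2 fell, Tdgf1 and Nodal itself. Of 9 hedgehog pathway genes the ligand gene Ihh rose by 1.44 ± 0.29 and the co-receptor gene Cdon fell by 0.88 on the log2 scale.

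Of 17 glycolysis and hypoxia genes 5 rose, such as Gpi1 (0.33 ± 0.04), Eno1 (0.32 ± 0.04) and Gapdh (0.24 ± 0.03), and 3 fell, including the glucose transporter gene Slc2a1 (-0.72 ± 0.19) and the hexokinase gene Hk2 (-0.36 ± 0.07). Of 14 ATF4 response genes 5 rose and 0 fell, from Psat1 of serine synthesis (0.14 ± 0.04) to Ddit4 (0.31 ± 0.07) and Vldlr (0.54 ± 0.18). Of 8 heat shock genes 3 rose and 0 fell, led by the chaperone gene Hspa8 (0.31 ± 0.04). Of 13 p53 targets 3 rose, led by Cdkn1a, and 1 fell, Bbc3 (-0.21 ± 0.06). Of 13 mitochondrially encoded genes 4 rose, with mt-Nd6 at 0.66 ± 0.08, and 1 fell, mt-Co3 (-0.07 ± 0.03).

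Markers of other lineages were few among the genes tested. Of 4 tested neuron markers 2 fell, Tubb3 (-0.75 ± 0.20) and Stmn2 (-0.63 ± 0.12), and their summed level ranged between 141 and 473 CPM in Wnt plus and between 229 and 695 CPM in Wnt minus populations. Of 4 tested trophoblast markers Hand1 fell, of 2 anterior neural genes Otx2 fell, of 3 fibroblast markers Col1a1 fell (-0.71 ± 0.25), and of 2 blood and endothelium markers Lmo2 rose.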
